A study of Mus musculus with 72 samples.

Results

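The kidneys of female SAMP1 mice on control diet for 6 months were compared with the liver, heart and brain of mice of the same strain, sex, diet and duration, to describe which genes were highest and which were lowest in kidney against every one of these organs. Of the 72 arrays of the series, 3 were kidney arrays of this group and 9 were arrays of the other organs, 3 each for liver, heart and brain. The arrays were taken by their labelled organ, diet and duration alone, with no use of measured values. SAMP1 is a senescence accelerated prone strain, so kidney and the other organs alike come from animals of that background, and no other strain was measured here. The mice entered the study at 4 weeks of age, were housed 3 to 6 per cage and were 7 months old when killed. The series as a whole set diets with oxidised coenzyme Q10 (Q10) or its reduced form (QH2), 500 mg per kg of body weight a day, against a control diet for 6 or 14 months, the latest mice being 15 months old, with 18 kidney arrays in all. The labels name the organ only, not a part of it, so cortex, medulla, vessels and attached tissue cannot be told apart. They do not say whether arrays of different organs with the same number came from 1 mouse. In the comparisons of organs the p-values measure the spread between 3 arrays per organ, pooled over kidney, liver, heart and brain. The spread of kidney alone is therefore not what the SE of a probe set gives.

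The kidney filters plasma in the glomeruli and reclaims most of the filtrate along the nephron. The proximal tubule takes back sodium, phosphate, sugars, amino acids and filtered protein and secretes organic anions and cations. The thick ascending limb dilutes the fluid, and the distal tubule and collecting duct adjust sodium, calcium, water and acid under hormonal control. Most of the mass of a mouse kidney is tubular epithelium, with proximal tubule as its greatest part.

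Each value below is a signal, the hybridisation intensity of 1 probe set on 1 array after quantile normalisation of the 12 arrays. Each difference is a difference of group means of log2(signal + 16), kidney minus the other organ, which understates the change of dim probe sets. Signals of different probe sets cannot be set against each other, since probes differ in brightness. A probe set was called when limma's adjusted p was under 0.05 and the log2 difference was at least 1. Highest in kidney means called higher against liver, heart and brain, and lowest in kidney means called lower against all 3. In whole organs, fewer cells of a type and less RNA per cell cannot be told apart.

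The labels of the 12 arrays went with markers of the organs, taken from lists drawn up with earlier results of these data known. Kidney arrays correlated with each other at 0.983 to 0.986 over log2 signals of the tested probe sets, with liver arrays at 0.740 to 0.755, with heart arrays at 0.711 to 0.720 and with brain arrays at 0.526 to 0.543. All 27 tested hepatocyte genes were lower in kidney than in liver, against 1271 of all 13384 genes tested, each gene by its brightest probe set. Of the cardiac muscle genes 31 of 32 were lower in kidney than in heart (1709 of all genes tested). Of the neuron genes 26 of 27 were lower in kidney than in brain (2491 of all genes tested). The Actb 3' to 5' ratio, a measure of RNA integrity, was 2.33 to 2.49 in kidney, against 2.86 to 3.00 in liver, 1.90 to 2.12 in heart and between 1.80 and 1.86 in brain. Kidney did not overlap with any other organ in this ratio. In the same ratio of Gapdh it did overlap with liver, with 0.929 to 1.11 in kidney and 0.959 to 1.19 in liver. Heart had 0.877 to 0.889 and brain 0.77 to 0.83. With the log2 of the Actb ratio as a covariate, 667 probe sets were highest in kidney (637 of them among the 1033 described below) and 49 were lowest. Because the Actb ratio goes with the organ, this fit cannot tell an organ difference from RNA integrity. The same holds wherever a comparison of organs is given with this covariate below.

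Of 27022 probe sets tested, 1033 (3.82%) were highest in kidney and 96 (0.355%) were lowest. The highest set had 943 probe sets with 1 gene symbol, from 691 genes, and the lowest set had 92, from 73 genes. In the highest set the smallest of the 3 log2 differences had a median of 1.90. It was at least 2 in 481 probe sets, at least 3 in 236 and at least 5 in 69. In the lowest set the difference from the nearest organ had a median of -1.23 and reached 2 in size in 10 probe sets. The next organ below kidney was liver for 467 of the 1033 (45.2%), heart for 358 (34.7%) and brain for 208 (20.1%). Taken organ by organ, kidney was higher than liver in 2939 probe sets (10.9%) and lower in 2177 (8.06%). Against heart it was higher in 3392 (12.6%) and lower in 3058 (11.3%), and against brain it was higher in 5135 (19.0%) and lower in 5025 (18.6%). This balance depends on the scaling: with signals as deposited, 7278 were higher and 1083 lower than in liver, 5814 and 1600 than in heart and 3327 and 9102 than in brain. In 1028 of the highest and 93 of the lowest probe sets no kidney array overlapped with any array of the other organs. Over all probe sets tested, kidney lay above every other array in 9.13% and below every other array in 3.36%. With adjusted p alone and no fold minimum, 2051 (7.59%) were highest and 631 (2.34%) lowest.

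The 20 genes with the greatest smallest difference were Kap, Miox, Klk1, Umod, Napsa, Dnase1, Lrp2, Cltrn, Acsm2, S100g, Fxyd2, Spink1, Cdh16, Slc7a12, Slc34a1, Slc12a1, Slc13a1, Cubn, Slc12a3 and Slco1a6, in that order. Their smallest log2 differences ran from 8.94 for Kap to 6.42 for Slco1a6. They come from most segments of the tubule. Lrp2, Cubn, Cltrn, Slc34a1, Slc13a1 and Slco1a6 act at the brush border or surface of proximal tubule cells, Umod and Slc12a1 mark the thick ascending limb, Slc12a3 marks the distal convoluted tubule, and Cdh16 is a cadherin found along the whole tubule. In all 20 the mean signal of each other organ was at most 23.7 and mostly below the offset of 16. Their differences are therefore set mainly by the kidney signal and the offset, and the order of the genes is no order of levels or of true folds. The genes were taken among probe sets whose kidney arrays lay above all others, so that the groups do not overlap follows from the choice.

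**Figure D1:**
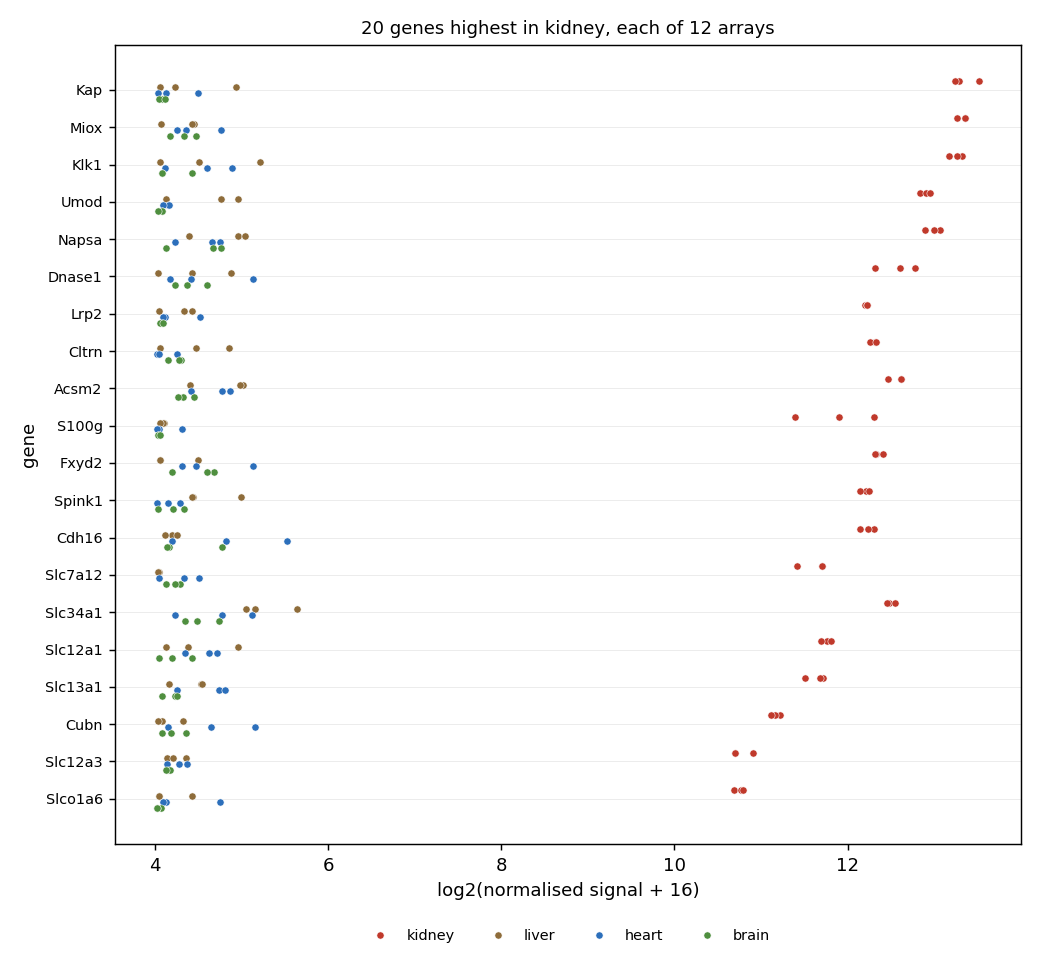
The 20 genes with the greatest smallest log2 difference, from Kap at the top (8.94) to Slco1a6 at the bottom (6.42). The x axis is log2(normalised signal + 16), each point is 1 array, and colours mark kidney, liver, heart and brain (3 arrays each). Kidney points stand apart on the right, as the choice of genes required, and the other organs lie together near the lower end of the scale.

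The promoters of some of these genes are shown because transcription factors of the HNF1 and HNF4 families are known regulators of genes of tubule cells. RefSeq promoter windows of build GRCm38.p6, from 250 bases before to 50 after each start, were found for 543 of the 691 genes (677 windows). The letters GTTAATNAT, the HNF1 core on either strand, stood in 1.33% of the windows of genes highest in kidney, against 0.505% of the windows of all genes tested and 0.801% of all 32851 windows. They stood in 1.92% of the 313 windows of genes with a smallest log2 difference of at least 2, and in 0 of the 73 windows of genes lowest in kidney. For CAAAGTCCA, a core of the HNF4 element, the shares were 1.18% of windows of genes highest in kidney, 0.491% of those of genes tested and 0.475% of all windows. These are counts of 9 and 8 windows among the genes highest in kidney, and a match is not a bound site.

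Genes with the HNF1 letters were Cltrn, Kcnj16, Pkhd1, Cdhr2, Tmed6, Gm10804, Atp6v0a4, Rab3il1 and Sult1d1. Cltrn and Pkhd1 are known targets of HNF1 factors. The windows of Cltrn (chrX:164089937-164090236, plus strand), Kcnj16 (chr11:110967783-110968082, plus strand) and Pkhd1 (chr1:20618008-20618307, minus strand) are printed 5' to 3', with the HNF1 letters in capitals. They start 54, 17 and 79 bases before the start, and in Kcnj16 they read on the opposite strand.
Cltrn: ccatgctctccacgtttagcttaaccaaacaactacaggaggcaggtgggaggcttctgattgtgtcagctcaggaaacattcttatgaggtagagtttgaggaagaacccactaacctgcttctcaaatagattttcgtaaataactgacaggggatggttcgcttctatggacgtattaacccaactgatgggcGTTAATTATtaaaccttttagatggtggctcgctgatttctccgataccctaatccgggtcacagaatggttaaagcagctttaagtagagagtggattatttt
Kcnj16: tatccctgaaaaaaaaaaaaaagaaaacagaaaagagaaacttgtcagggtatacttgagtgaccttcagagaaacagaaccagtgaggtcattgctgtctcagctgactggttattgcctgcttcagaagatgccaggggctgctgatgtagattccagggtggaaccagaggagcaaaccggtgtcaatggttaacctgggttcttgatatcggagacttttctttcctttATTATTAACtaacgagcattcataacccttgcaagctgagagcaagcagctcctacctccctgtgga
Pkhd1: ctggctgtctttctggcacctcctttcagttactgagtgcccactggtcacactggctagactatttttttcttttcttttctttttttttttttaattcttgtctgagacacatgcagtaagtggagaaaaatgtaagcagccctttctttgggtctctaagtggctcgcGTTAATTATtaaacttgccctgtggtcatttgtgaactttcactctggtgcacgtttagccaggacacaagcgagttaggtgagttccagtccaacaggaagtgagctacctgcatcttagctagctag

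The window of Kap, the gene with the greatest smallest difference, is on chr6:133853618-133853917, minus strand, and holds the letters TATAAA (capitals) 31 bases before the start. TATAAA on either strand stood in 10.3% of windows of genes highest in kidney, 8 of 73 windows of genes lowest in kidney, 8.10% of windows of genes tested and 13.6% of all windows.
Kap: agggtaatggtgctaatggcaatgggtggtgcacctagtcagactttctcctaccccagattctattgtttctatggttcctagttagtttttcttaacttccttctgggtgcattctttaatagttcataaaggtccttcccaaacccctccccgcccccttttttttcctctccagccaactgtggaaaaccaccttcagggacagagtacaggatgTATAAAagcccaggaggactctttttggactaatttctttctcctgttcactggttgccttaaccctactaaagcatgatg

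The gene lists of nephron functions held 361 genes, of which 323 were found on the array and 303 passed the filter on low signals. Of these 303, 174 were highest in kidney (57.4%), against 649 of all 13384 genes tested (4.85%, each gene by its brightest probe set). The filter used the mean of the 12 arrays. A list gene dim in the other organs therefore passed only through its kidney signal, and genes dim in all organs dropped out. The 57.4% is thus a share of the genes that passed, and the filter favours list genes bright in kidney. All genes tested passed the same filter. None of the 303 was lowest in kidney, while 61 of all genes tested were (0.456%). The lists were drawn up from what is known of the kidney, but with earlier results of these data known. That their members are high there is therefore neither an independent check of the arrays nor a separate finding. What varies is how far each list, and each member, stands apart from liver, heart and brain.

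**Figure D2:**
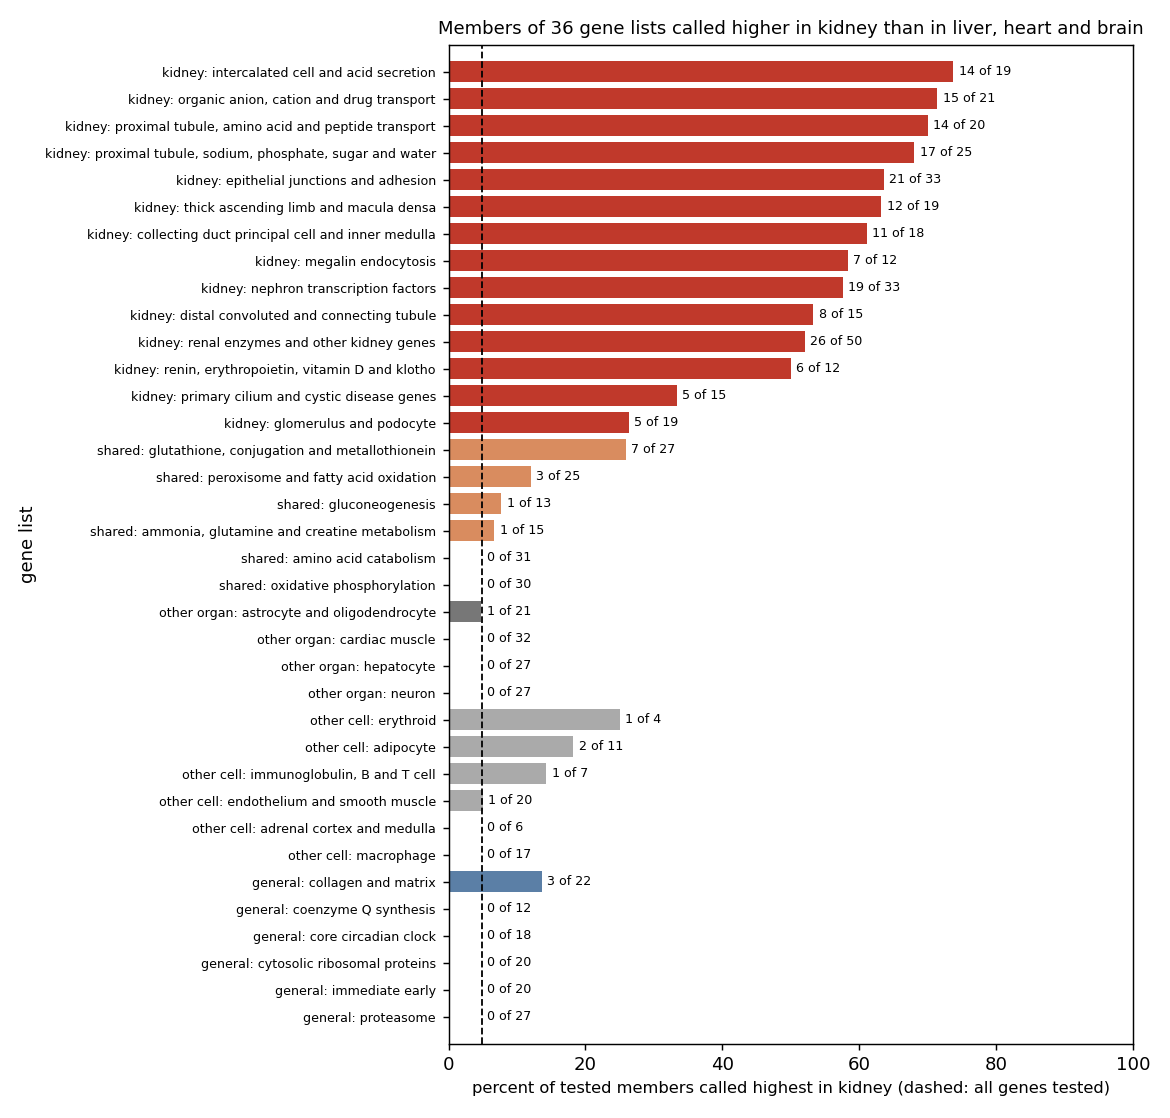
Percent of the tested members of 36 gene lists that were called highest in kidney, with the count beside each bar and a dashed line at 4.85% for all genes tested. Lists of nephron functions run from 73.7% for the intercalated cell down to 26.3% for the glomerulus and podocyte, and lists of cardiac muscle, hepatocyte and neuron genes stand at 0.

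Of the proximal tubule genes of sodium, phosphate, sugar and water transport, 17 of 25 were highest in kidney. Slc34a1, the main phosphate transporter of the brush border, had signals of 5703, 5955 and 5604 in kidney, against a lowest of 2.80 and a highest of 34.1 on the 9 arrays of the other organs. The 3 kidney arrays lay close together and far above all others, with a smallest log2 difference of 7.21 ± 0.21 (SE, against liver; limma adjusted p = 4.98e-14). Slc5a2, the glucose transporter SGLT2 of the early proximal tubule, had 2296, 1674 and 2470 in kidney and no more than 42.5 elsewhere, a smallest log2 difference of 5.74. Slc5a12, a lactate transporter, had 1419, 1348 and 1408 in kidney and no more than 2.05 elsewhere (6.37). Slc9a3, the sodium-hydrogen exchanger of the brush border, was brighter in kidney by a smallest log2 difference of 3.07, and Slc34a3, a second phosphate transporter, by 3.07.

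Not every proximal gene separated kidney from all 3 organs. Slc2a2, the glucose transporter of the basolateral membrane and of hepatocytes, had 1146, 885 and 1213 in kidney, against a mean of 3144 in liver, 8.76 in heart and 1.03 in brain. It was called lower than liver (log2 -1.54) and higher than heart (5.52) and brain (6.00), the call against liver being lost with an offset of 1 (limma adjusted p = 0.0516). Aqp1, a water channel of proximal tubule and of endothelium, had 2707, 3221 and 2509 in kidney, against means of 415 in liver and 1563 in heart. Its kidney arrays lay above all others, but the difference from heart, 0.84 ± 0.11 (SE), stayed under the fold threshold. The scaffold gene Slc9a3r1 had 2173, 2047 and 2466 in kidney and a mean of 2340 in liver, overlapping with it.

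Of the genes of amino acid and peptide transport, 14 of 20 were highest in kidney. Cltrn, which encodes collectrin, the partner of brush border amino acid transporters, had 5068, 4866 and 5138 in kidney and no more than 12.9 elsewhere, a smallest log2 difference of 7.83 ± 0.18 (SE, against liver). The cystine transporter pair showed how the next organ can differ within 1 complex. Slc7a9, its light chain, had 2116, 2208 and 2354 in kidney and no more than 18.6 elsewhere (6.30). Slc3a1, its heavy chain, had 2380, 2751 and 2787 in kidney and a mean of 563 in liver, so that its smallest log2 difference was 2.20. Slc6a19 and Slc6a18, transporters of neutral amino acids, had smallest log2 differences of 4.67 and 5.02. Slc1a1 and Slc15a2, which take up glutamate and peptides, had brain as the next organ (1.40 and 2.01). Slc6a12, a betaine transporter, had 14.1, 12.7 and 3.32 in kidney, against a mean of 352 in liver.

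Of the organic anion, cation and drug transporters, 15 of 21 were highest in kidney. Slc22a6 and Slc22a8, the basolateral organic anion transporters OAT1 and OAT3, had smallest log2 differences of 5.15 and 5.81, both from brain. Slc22a12, the urate transporter URAT1, had 1072, 953 and 870 in kidney and no more than 32.1 elsewhere (4.67). Slco1a6, an organic anion transporter of rodents, had 1633, 1722 and 1763 in kidney and no more than 10.9 elsewhere (6.42). Slc47a1, the apical cation exporter MATE1, had a difference of 0.91 from liver and stayed under the fold threshold. Slc22a30 was called lower in kidney than in liver (-1.74) and higher than in heart and brain.

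The receptors of filtered protein were far brighter in kidney. Lrp2, which encodes megalin, had 4708, 4773 and 4773 in kidney and no more than 6.92 elsewhere, a smallest log2 difference of 7.95 ± 0.16 (SE, against liver; limma adjusted p = 1.53e-15). Another of its 3 probe sets was not called (0.54). Its partners in uptake followed, with 2371, 2279 and 2198 for Cubn (cubilin) in kidney and no more than 19.6 elsewhere, and a smallest difference of 4.55 for Amn (amnionless). Dab2, the adaptor of megalin, had 2012, 1928 and 2127 in kidney, against means of 109 in liver, 203 in heart and 33.8 in brain. Of the 12 genes of the list, 7 were highest in kidney. Fcgrt, the receptor that spares albumin and IgG from breakdown, had a log2 difference of -0.11 from liver (limma adjusted p = 0.387).

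Of the thick ascending limb genes, 12 of 19 were highest in kidney. Umod, which encodes uromodulin, the most abundant protein of normal urine, had 7282, 7653 and 7912 in kidney, against a highest of 15.1 and a median of 1.43 elsewhere. All kidney arrays were at least 7282 and none of the other 9 rose above the dim end of the scale (smallest log2 difference 8.28 ± 0.18 SE, against liver; limma adjusted p = 2.95e-15). Slc12a1, the cotransporter blocked by furosemide, had 3443, 3564 and 3286 in kidney and no more than 15.0 elsewhere (7.18). Kcnj1, the potassium channel ROMK, had 1190, 1310 and 1168 in kidney and no more than 5.71 elsewhere (6.09), and Egf had 5336, 5544 and 5425 in kidney and no more than 65.0 elsewhere (6.34). The claudins Cldn16 and Cldn10, which set cation permeability there, had smallest differences of 3.43 and 2.68. Nos1, a mark of the macula densa, a handful of cells per nephron, had 14.5, 3.68 and 16.7 in kidney, against a mean of 175 in brain.

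Of the distal convoluted and connecting tubule genes, 8 of 15 were highest in kidney. Slc12a3, the cotransporter blocked by thiazides, had 1904, 1646 and 1646 in kidney and no more than 4.76 elsewhere (6.50 ± 0.15 SE, against heart). Klk1, tissue kallikrein, had 10180, 9184 and 9829 in kidney and no more than 21.3 elsewhere (8.65), with 3 of its 4 probe sets called. This probe set is of a type that can match several transcripts of a gene family, so kallikreins similar to Klk1 may share its signal. S100g, the calcium-binding protein calbindin-D9k, had 5027, 2681 and 3809 in kidney and no more than 3.85 elsewhere (7.74), the kidney arrays being spread more widely than for Slc12a3. Calb1 and Pvalb, the calcium-binding proteins calbindin-D28k and parvalbumin, are shared with neurons. Calb1 had 4773, 3913 and 4670 in kidney and a mean of 1494 in brain (1.57, limma adjusted p = 0.0799 with the Actb covariate), and Pvalb had 1237, 1052 and 1135 in kidney and a mean of 597 in brain (0.93, under the threshold).

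Of the principal cell and inner medulla genes, 11 of 18 were highest in kidney. Aqp2, the vasopressin-regulated water channel, had 569, 1457 and 707 in kidney and no more than 16.3 elsewhere (5.18 ± 0.29 SE, against heart). Avpr2, the vasopressin receptor, had 115, 171 and 134 in kidney and no more than 13.8 elsewhere (2.61). The second kidney array was the highest of the 3 for both. It was the highest also for Aqp3 (203, 345 and 290), Fxyd4 (356, 746 and 391), the urea transporter Slc14a2 (69.5, 175 and 57.3), the mucin Muc1 (41.2, 125 and 35.4) and Aqp4 (71.2, 306 and 69.8), all collecting duct genes in background knowledge. The sodium channel subunits did not go with it, since Scnn1b had 122, 103 and 83.9 and Scnn1g had 190, 165 and 235. Without this array 1020 probe sets were highest in kidney and 101 were lowest. With the Actb ratio as covariate the calls of Avpr2 (limma adjusted p = 0.0588), Scnn1b (0.078), Slc14a2 (0.542) and Muc1 (0.116) were lost. Scnn1a, another subunit, was above all other arrays in kidney, but its difference from liver (0.65) was under the threshold. Krt8 and Krt18, keratins of simple epithelia, had liver above kidney (-0.70 and -2.46).

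Intercalated cells secrete acid or base, and 14 of the 19 genes of their list were highest in kidney, the greatest share of any list. Foxi1, their defining transcription factor, had 210, 235 and 202 in kidney and no more than 13.4 elsewhere (3.39). Aqp6 had 491, 596 and 469 in kidney and no more than 10.7 elsewhere (4.79). Slc26a4, the exchanger pendrin of base-secreting cells, had 717, 546 and 594 in kidney and no more than 75.7 elsewhere (3.09). Slc4a1, the anion exchanger of acid-secreting cells and of red cells, had 323, 339 and 324 in kidney and no more than 55.2 elsewhere (2.68). Car2, a cytosolic carbonic anhydrase, had a difference of 0.59 from brain, and Atp6v0d2 had liver as its next organ (-0.33, adjusted p = 0.225 in limma).

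The glomerulus list stood apart least, with 5 of 19 genes highest in kidney, and most of its other members were also bright in another organ. Col4a3 had 345, 337 and 406 in kidney and no more than 24.3 elsewhere (3.39), and Col4a4 had 671, 701 and 704 in kidney and no more than 47.2 elsewhere (3.71). These are chains of the collagen IV of the glomerular basement membrane. Nphs1, nephrin of the slit diaphragm, was dim, with 63.6, 46.1 and 61.5 in kidney, against a highest of 38.2 elsewhere (1.11 ± 0.31 SE, against heart; limma adjusted p = 0.00643). Its call was lost with other offsets and with the Actb ratio as covariate (limma adjusted p = 0.422). Podxl, a coat protein of podocytes and endothelium, had 522, 494 and 547 in kidney, against means of 27.8 in liver, 431 in heart and 48.0 in brain (0.27 from heart). Wt1, a transcription factor of podocytes, had 36.5, 21.0 and 36.9 in kidney, overlapping with heart. Synpo had 18.9, 3.18 and 6.58 in kidney by its brightest probe set, against means of 247 in heart and 315 in brain, although its other probe set was highest in kidney.

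Among the hormone genes, 6 of 12 were highest in kidney. Kl, which encodes klotho, the co-receptor of FGF23, had 2026, 1896 and 1978 in kidney and no more than 55.9 elsewhere (5.26 ± 0.25 SE, against brain). Vdr, the vitamin D receptor, had 555, 478 and 539 in kidney and no more than 15.9 elsewhere (4.60). Cyp24a1, the enzyme that inactivates vitamin D hormone, varied among kidneys, with 728, 186 and 480, against no more than 9.74 elsewhere (4.28 ± 0.34 SE). Pth1r, the parathyroid hormone receptor, had 1700, 1479 and 1631 in kidney and no more than 83.9 elsewhere (4.16). Agt, the precursor of angiotensin, had 216, 403 and 247 in kidney, against means of 4152 in liver, 10.1 in heart and 99.2 in brain. Ren1, Ren2 and Epo were not analysed here.

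Of the transcription factors of the nephron, 19 of 33 tested were highest in kidney, while 10 more were on the array and did not pass the filter on low signals. Homeobox genes were among them, with Hoxa9 at 430, 426 and 571 in kidney and no more than 9.69 elsewhere (4.60), Hoxd9 at a smallest difference of 4.05 and Hoxd8 at 3.86. Pax8, needed for nephron formation, had 229, 234 and 189 in kidney and no more than 20.2 elsewhere (3.09). Lhx1 had a smallest difference of 2.35, Sim1 of 3.11, Emx2 of 2.16 and Tfap2b, a factor of distal tubules, of 2.58. Hnf4a, a regulator of proximal tubule and hepatocyte genes, had 2344, 2258 and 2019 in kidney, against means of 1451 in liver, 2.08 in heart and 3.31 in brain. Its kidney arrays were the highest of all 12, but only by 0.60 over liver. Six2 and Eya1, factors of the nephron progenitors of embryos, were dim in kidney, with at most 13.5 and 7.34.

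Of the other renal genes, 26 of 50 were highest in kidney. Kap, an androgen-regulated protein of proximal tubule in mice, had 9967, 9659 and 11740 in kidney and no more than 14.8 elsewhere (8.94 ± 0.20 SE, against liver; limma adjusted p = 4.59e-15). Miox, which opens the ring of inositol, had 10500, 9829 and 10500 in kidney and no more than 11.2 elsewhere (8.87). Napsa, an aspartic protease of lung and kidney, had 7608, 8559 and 8151 in kidney and no more than 16.9 elsewhere (8.19). Gatm, which makes the creatine precursor guanidinoacetate, had 3223, 2673 and 2990 in kidney, against means of 127 in liver, 30.1 in heart and 210 in brain (3.73). Liver stood above kidney for 11 of these 50 genes, among them Cyp2e1 (-2.18), Hsd11b1 (-3.87) and Bhmt (-4.43), a methyltransferase of betaine.

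Of 33 genes of epithelial junctions, 21 were highest in kidney. Cdh16, kidney-specific cadherin, had 4501, 5027 and 4805 in kidney and no more than 30.3 elsewhere (7.38). Cdh1, E-cadherin, had 496, 543 and 537 in kidney and no more than 53.6 elsewhere (3.40), and Epcam had 478, 638 and 489 in kidney and no more than 14.8 elsewhere (4.52). Of the claudins, which set the permeability of tight junctions, Cldn2 of proximal tubule had 2524, 2398 and 2433 in kidney and a mean of 496 in liver (2.30), and Cldn8 of distal segments had a smallest difference of 4.79. Cldn1 and Cldn3 were lower in kidney than in liver (-1.43 and -2.63), but the call of Cldn1 was lost as deposited (-0.73) and with the Actb covariate (-0.39, limma adjusted p = 0.584). Of 15 genes of the primary cilium and of cystic disease, 5 were highest, among them Pkhd1 (628, 669 and 728 in kidney and no more than 89.5 elsewhere), Bicc1 and Glis3. Pkd1 and Kif3a were not among them, with brain above kidney by 0.63 and 2.16 on the log2 scale.

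Some genes were high in kidney and in 1 other organ alike, that is called higher in kidney than in the remaining organs and within a log2 difference of 1 of that organ. There were 939 such probe sets with liver (3.47% of those tested), 366 with heart (1.35%) and 305 with brain (1.13%). Those shared with liver were led by Fbp1, Cyp2j5, Ttc36, Acaa1b, Ugt3a2 and Rdh16f2. Fbp1, the fructose bisphosphatase of gluconeogenesis, had 9030, 8453 and 9367 in kidney, against 7756, 6668 and 7148 in liver and no more than 22.9 in heart or brain. Kidney exceeded liver on every array, but by 0.32 ± 0.14 (SE; limma adjusted p = 0.0684). Pck1 and G6pc, the other enzymes that commit a cell to making glucose, had log2 differences of -0.05 and 0.95 from liver and of 6.87 and 7.11 from heart.

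Those shared with heart were led by Acss1, BC034090, Fuca2, Lamb1, Tns1 and Podxl. Acss1, the mitochondrial acetyl-CoA synthetase, had 1058, 903 and 1050 in kidney, against 1237, 1222 and 1356 in heart, no more than 3.33 in liver and no more than 81.2 in brain. Lamb1, a laminin chain, had 534, 474 and 508 in kidney, against 214, 327 and 304 in heart, and its call above brain was lost with the Actb covariate (limma adjusted p = 0.109). Those shared with brain were led by Kcnk1, Pvalb, Pou3f3, Car2, Ppp1r1a and Ncoa7. Kcnk1, a potassium channel, had 941, 1013 and 954 in kidney, against 900, 867 and 810 in brain and no more than 20.7 in liver or heart. Pou3f3, a POU transcription factor of brain and of the distal nephron, had 598, 770 and 616 in kidney, against 370, 367 and 365 in brain. Kidney arrays lay above brain arrays for all 6 of these genes, while the share of this over all probe sets was not counted.

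**Figure D3:**
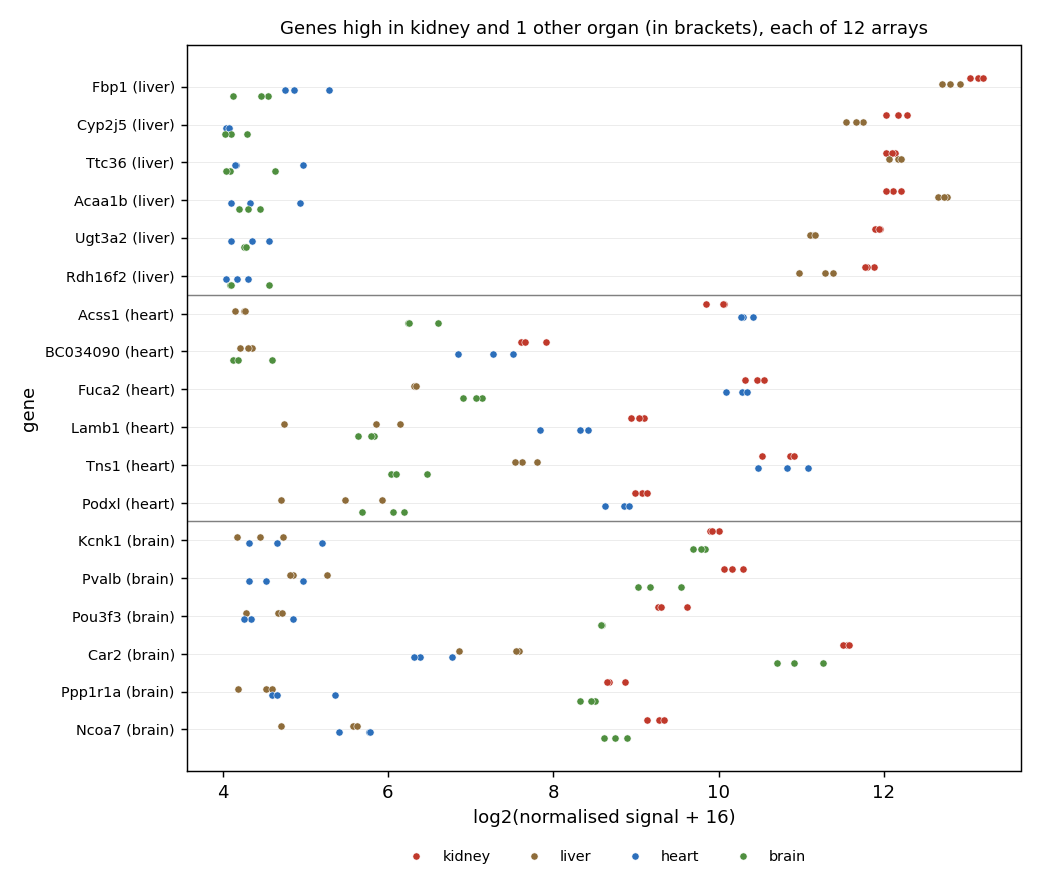
Genes high in kidney and alike in liver (top block), heart (middle block) or brain (bottom block). The x axis is log2(normalised signal + 16), each point is 1 array and colours mark the organs. In each block the kidney points and those of the organ in brackets lie on the right, with means within a log2 difference of 1. They need not overlap, such as for Fbp1 with 8453 to 9367 in kidney and 6668 to 7756 in liver.

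Lists of metabolism that kidney shares with other organs differed in how many genes were highest in kidney. Over all 13384 genes tested, 1804 were higher than in liver, 1968 than in heart and 3093 than in brain, and 1271, 1709 and 2491 were lower. Of 27 genes of glutathione, conjugation and metallothionein, 7 were highest (25.9%, against 4.85% of all genes). Gpx3, the glutathione peroxidase of plasma, which is made in proximal tubule, had 11740, 12060 and 10960 in kidney, against means of 61.8 in liver, 1089 in heart and 65.2 in brain (3.42 ± 0.29 SE, from heart). Sod3, the extracellular superoxide dismutase, had 963, 908 and 758 in kidney and no more than 179 elsewhere (2.51). Of 25 genes of the peroxisome and fatty acid oxidation, 3 were highest (12.0%). Dao, D-amino acid oxidase, had 788, 658 and 719 in kidney and no more than 19.6 elsewhere (4.74), and the others were Hao2 (1.72) and Slc27a2 (1.02). Of 13 genes of gluconeogenesis 1 was highest, Slc25a10, and of 15 genes of ammonia, glutamine and creatine 1 was highest, Gatm.

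Of 31 genes of amino acid breakdown, 0 were highest: 27 were higher in kidney than in brain, 19 were higher than in heart, and 15 were lower than in liver. Of 30 genes of oxidative phosphorylation, 0 were highest, 6 were higher than in liver, 1 than in heart and 9 than in brain, and 6 were lower than in heart. The list's median log2 differences were 0.70 from liver, -0.64 from heart and 0.82 from brain, against 0.06, -0.05 and 0.18 over all genes tested. The muscle isoform Cox7a1 had 286, 324 and 287 in kidney, against a mean of 5417 in heart. Of 12 genes of coenzyme Q synthesis, 0 were highest, 7 were lower than in heart, 1 was lower than in liver and 3 were higher than in brain.

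The 15 genes lowest in kidney with the greatest difference from the nearest organ were Homer2, Cdh2, St3gal5, Ndrg2, Ppp1r3c, Vtn, St6galnac6, Rnf144b, Pltp, Gpcpd1, Ppm1k, Hopx, Nfix, Nrn1 and Tmcc1. They were taken among probe sets whose kidney arrays lay below all others. They are of varied function. The offset of 16 limits the size of a difference where kidney is dim, so the sizes of the highest and the lowest set cannot be compared, and with an offset of 1 the lowest set held 280 probe sets. Of the 96, 30 (31.2%) were called with signals as deposited and 39 (40.6%) with the Actb covariate. Among the 15, Tmcc1 was not called as deposited (-0.87) or with that covariate (limma adjusted p = 0.0672), and Nrn1 was not called with an offset of 64 (-0.87).

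**Figure D4:**
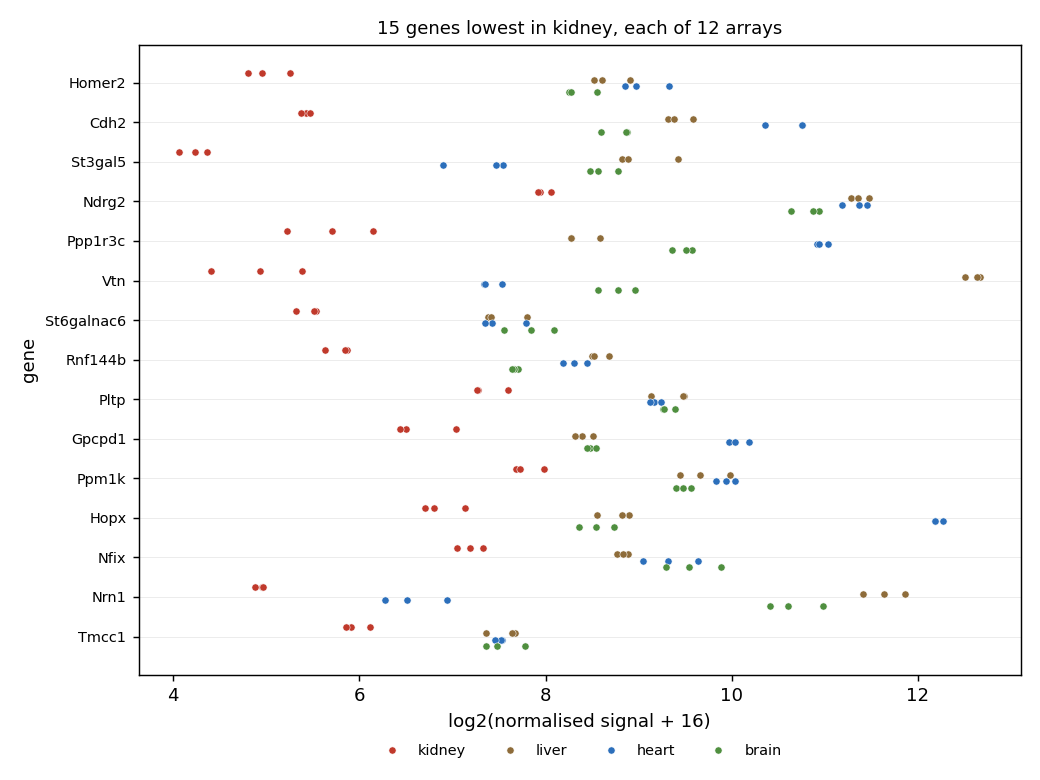
The 15 genes lowest in kidney, from Homer2 (-3.36 from the nearest organ) to Tmcc1 (-1.55). The x axis is log2(normalised signal + 16), each point is 1 array and colours mark kidney, liver, heart and brain. Kidney points lie left of all others, as the choice of genes required, and the gap is narrower for the genes near the bottom.

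Homer2, a scaffold of glutamate receptors and calcium signalling, had 11.9, 22.3 and 14.9 in kidney, against 463, 374 and 350 in liver, 485, 446 and 625 in heart and 290, 293 and 360 in brain. No kidney array came near the other organs, with a difference of -3.36 ± 0.15 from the nearest, brain (SE; limma adjusted p = 9.17e-12). Of its 3 probe sets 2 were lowest in kidney. Cdh2, N-cadherin, had 27.1, 28.2 and 25.4 in kidney, against 620, 651 and 754 in liver, 1296, 1717 and 1709 in heart and 371, 454 and 448 in brain (-3.36 ± 0.12 SE, from brain). The cadherins thus lay on opposite sides in kidney, with Cdh16 and Cdh1 highest and Cdh2 lowest.

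St3gal5, the synthase of the ganglioside GM3, had 2.84, 4.65 and 0.72 in kidney, against 668, 437 and 457 in liver, 170, 104 and 161 in heart and 361, 423 and 342 in brain. It was near the dim end in kidney and bright in every other organ (-3.08 ± 0.18 SE, from heart), a difference that the offset of 16 holds down. St6galnac6, another sialyltransferase of gangliosides, had 23.9, 30.5 and 29.6 in kidney, against 147 to 257 on the other arrays (-2.07). Ndrg2 had 250, 229 and 226 in kidney, against 2475, 2599 and 2826 in liver, 2632, 2306 and 2793 in heart and 1951, 1573 and 1860 in brain (-2.85 ± 0.10 SE, from brain).

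Ppp1r3c, a subunit that brings a phosphatase to glycogen, had 36.03, 55.09 and 21.47 in kidney, against means well above that in liver, heart and brain (-2.69, from liver, to -5.27, from heart). Vtn, vitronectin, had 25.9, 5.20 and 14.6 in kidney, against means of 6218 in liver, 154 in heart and 423 in brain. Hopx, a homeodomain protein of heart, had 95.5, 125 and 88.4 in kidney, against 4626, 4907 and 4626 in heart, and it was also above kidney in liver and brain (-1.88 and -1.66). Nrn1, neuritin, had 15.1, 15.3 and 13.3 in kidney, against 3172, 3709 and 2705 in liver, 107, 61.5 and 75.2 in heart and 1343, 1541 and 2012 in brain. Pltp, the phospholipid transfer protein of plasma, had 139, 177 and 138 in kidney, against 540 to 704 on the other arrays (-1.80). Nfix, a nuclear factor I gene, had 144, 130 and 117 in kidney, against 421 to 932 on the other arrays (-1.64), with 3 of its 4 probe sets lowest. Got1, the cytosolic aspartate aminotransferase, and Camk2b, a calmodulin kinase subunit, were also lowest, with -1.07 and -1.14 from the nearest organ. Got1 was not called without liver array 1 (-0.87) or as deposited (-0.68). Camk2b was not called without kidney array 3 (-0.96), as deposited (-0.72), with an offset of 64 (-0.51) or with the Actb covariate (limma adjusted p = 0.186).

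At the fold threshold the values ran on without a break. Glyat (1.00) and Mlec (1.00) were the last inside the highest set, and Nus1 (0.998) and Slc25a5 (0.997) the first outside it. Among the lowest, Jam2 and Sox21 (-1.001 each) were the last inside, and Tmcc1 by another of its probe sets (-0.9997) and Clu (-0.998) the first outside.

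Markers of other cells that a kidney sample can hold were highest in kidney in 0% to 25% of a list, against 4.85% of all genes tested. These lists held only 4 to 20 tested genes, and many members were higher than in 1 or 2 organs. Of 17 macrophage genes 0 were highest, 11 were lower than in liver and 8 than in heart, and 2 were higher than in brain. Of 20 genes of endothelium and smooth muscle, 8 were higher in kidney than in liver, 2 than in heart and 14 than in brain, and 8 were lower than in heart. Highest was 1, Plvap, with 383, 453 and 365 in kidney and no more than 190 elsewhere. With the Actb covariate its smallest difference was 0.42 (limma adjusted p = 0.491). Of 14 adrenal genes on the array only 6 passed the filter on low signals, and 0 of these were highest. Cyp11a1, Cyp11b1, Cyp11b2, Cyp21a1, Hsd3b1, Mc2r, Th and Nr5a1 did not pass. The summed signal of the 6 was 103 to 156 in kidney, against 532 to 682 in liver, 271 to 300 in heart and 3347 to 3594 in brain. These sums leave out the genes that did not pass and are no measure of adrenal tissue. Of 7 genes of immunoglobulin, B and T cells, 1 was higher than in liver, 4 than in heart and 5 than in brain, and Cd8a was highest (1.83, but limma adjusted p = 0.295 with the Actb covariate). Of 4 erythroid genes 1 was highest, Slc4a1, which intercalated cells also express. Of 11 adipocyte genes 2 were highest, 7 were higher than in liver, 3 than in heart and 10 than in brain. Signals of some adipocyte genes differed between the kidney arrays. Ucp1, the mark of brown adipocytes, had 236, 388 and 18.4 in kidney and no more than 6.85 elsewhere, and Adipoq had 411, 498 and 67.9 in kidney, array 3 overlapping with heart (at most 74.2). With that covariate neither was called (limma adjusted p = 0.657 for Ucp1 and 0.291 for Adipoq). Fabp4 had 1564, 2173 and 604 in kidney, and the summed signal of the 11 adipocyte genes was 4579 to 10680 in kidney, against 7708 to 9870 in liver, 13660 to 14250 in heart and between 665 and 759 in brain. The part of attached fat in the set of genes highest in kidney was not tested. Without kidney array 3, 998 probe sets were highest and 92 lowest, and 975 of the 1033 (94.4%) remained. Igha, an immunoglobulin gene, also varied, with 531, 197 and 77.7 in kidney.

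The same comparison was made in the 5 other combinations of diet and duration, each with 12 arrays not used above. Of the 1033 probe sets highest in kidney, 91.0% were called again on Q10 at 6 months, 88.0% on QH2 at 6 months, 83.3% on control diet at 14 months, 72.1% on Q10 at 14 months and 83.6% on QH2 at 14 months. The background of such calls in these groups was 3.99%, 3.92%, 4.25%, 3.48% and 3.94% of probe sets, in the same order. Of the lists called there, 87.1%, 85.9%, 75.0%, 79.2% and 81.2% lay within the 1033. Called in all 5 were 676 (65.4%), and called in none were 34 (3.29%), among them Muc1 and Kcne1. The 20 named genes were called in all 5.

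Genes lowest in kidney were followed in the same way. Of the 96, 70.8%, 61.5%, 67.7%, 49.0% and 67.7% were called in the same 5 groups, where the background was 0.326%, 0.289%, 0.448%, 0.333% and 0.414%. Called in all 5 were 32 (33.3%) and in none 11 (11.5%), among them Got1. Of the 15 named genes 13 were called in all 5, and Gpcpd1 and Nfix in 4. The difference between the shares of the highest and the lowest set was not tested.

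**Figure D5:**
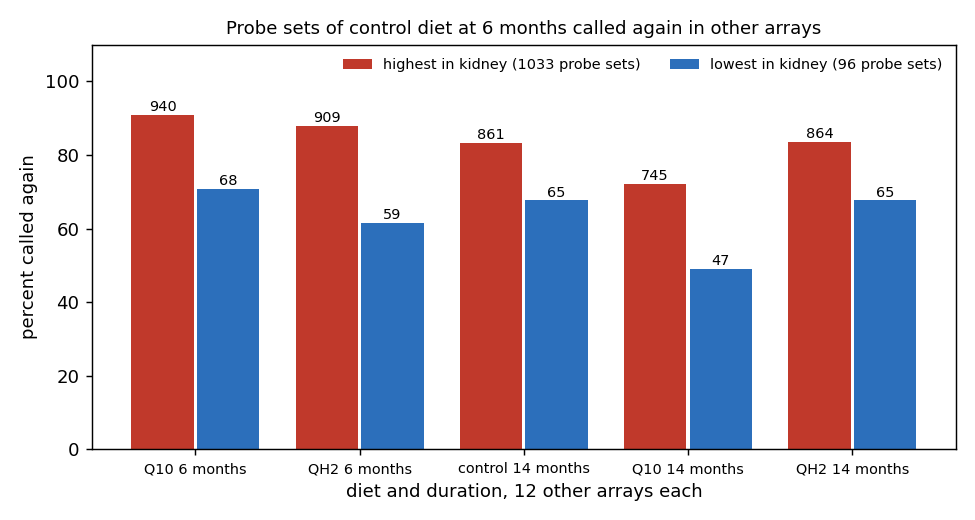
Percent of the 1033 probe sets highest and the 96 lowest in kidney on control diet at 6 months that were called again in the same comparison of 12 other arrays, by diet and duration, with counts above the bars. The highest set lies between 72.1% and 91.0% and the lowest set between 49.0% and 70.8%, with Q10 at 14 months at the low end for both.

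Among the named genes the smallest difference of Napsa stood apart in 1 group. It was 5.04 on Q10 at 14 months and lay between 7.64 and 8.21 in the 4 other groups. Its kidney signals there were 10350, 9779 and 10960, while liver had 103, 1056 and 231, heart 6.74, 289 and 467, and brain 14.6, 34.2 and 15.4. The kidney arrays lay close together there, and 1 liver array and 2 heart arrays stood well above the dim end. The cause was not tested. Umod (8.57 to 8.91) and Kap (8.83 to 9.35) kept differences near those of control diet at 6 months in all 5 groups.

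The genes highest in kidney were also followed across the 18 kidney arrays, normalised on their own and fitted together in limma, with a call at adjusted p under 0.05 and no fold minimum. On control diet, 35 of the 1033 probe sets were higher and 146 lower at 14 than at 6 months, that is 17.5%, against 2681 of 27022 over all probe sets (9.92%; 4.98% higher and 4.94% lower). The 1033 were chosen as high on the same 3 arrays at 6 months that serve here as baseline, so this count and its direction are a description and not independent of the choice. Of 83 tested probe sets of the lowest set, chosen as low on those arrays, 7 were higher (3 of Nfix, 2 of Pltp, and 1 each of Atp6v0a1 and Zbtb16) and 1 was lower (Scarb2, -0.43), with a median of 0.10, against -0.12 for the highest set and -0.02 over all. By brightest probe set, 35 of 299 genes of the nephron lists were lower and 4 were higher. The proximal lists held 8 lower of 25 for sodium, phosphate, sugar and water and 6 lower of 20 for amino acids and peptides, and 0 of 45 higher. The lists of thick ascending limb and principal cell had 0 of 19 and 0 of 17 called by brightest probe set. Another probe set of Aqp3, a gene of the principal cell list, was lower (-1.745, limma adjusted p = 0.00274). Its kidney means were 218 at 6 and 54.0 at 14 months. These counts depended on single arrays and on the scaling: leaving out 1 array at a time gave 66 to 170 of the 1033 probe sets and 12 to 33 lower genes of the lists, and with signals as deposited the counts were 81 and 0. The Actb ratio was 2.10 to 2.48 in these 14-month kidneys, against 2.33 to 2.49 at 6 months.

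Aqp1 had 1594, 1400 and 1726 at 14 months, against 3269, 3842 and 3047 at 6 months, a log2 difference of -1.10 ± 0.23 (SE; limma adjusted p = 0.00741). Dpep1, a dipeptidase of the brush border, had 323, 311 and 341 at 14 months, against 762, 610 and 721 at 6 months (-1.06 ± 0.13 SE; limma adjusted p = 2.92e-04). Neither gene overlapped between durations. Each call was kept in 7 of 8 other settings, and with signals as deposited it was lost (limma adjusted p = 0.0873 for Aqp1 and 0.0817 for Dpep1). Gatm had 1642, 1721 and 1992 at 14 months, against 3847, 3230 and 3604 at 6 months (-0.99, limma adjusted p = 0.0653 as deposited), and Slc5a2 had 1040, 1458 and 1715 at 14 months, against 2797, 2058 and 3000 at 6 months (-0.90), a call kept in 4 of the 8 settings. Cdh1 had 947, 941 and 926 at 14 months, against 612, 673 and 666 at 6 months (0.52 ± 0.08 SE; limma adjusted p = 0.00202), kept in all 8. Nfix and Pltp, among the 7 probe sets of the lowest set that were higher and subject to the same choice, were higher at 14 than at 6 months, with 293, 250 and 264 against 178, 161 and 144 for Nfix (0.69) and 295, 276 and 321 against 171, 219 and 170 for Pltp (0.63), each kept in all 8.

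Few of these genes were called between diets. In kidney, 0 of the 1033 probe sets were called for Q10 at 6 months, for QH2 at 6 months or for QH2 at 14 months. Over all 27022, 0, 7 and 0 were called by limma (0%, 0.0259% and 0%). An unadjusted limma p under 0.05 was reached by 53, 198 and 64 of the 1033, against 1099, 2521 and 1565 over all. At 6 months the baseline arrays were those on which the 1033 were chosen. For Q10 at 14 months, 331 of the 1033 and 3404 of all probe sets had an unadjusted limma p under 0.05. Called were 48 of the 1033 (4.65%), all lower. Over all probe sets 170 were called (0.629%), 140 lower and 30 higher. The count of 48 became 170 without the first Q10 array and 21 and 2 without the first and second control array. It was 12 and 10 without Q10 arrays 2 and 3, and 0 with signals as deposited. The Actb ratio was 1.64 to 3.22 in the kidneys on Q10 at 14 months, against 2.10 to 2.48 in their controls, and its part was not tested beyond the covariate, with which 81 were called.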

How the data were processed

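Total RNA was hybridised to Affymetrix mouse arrays, 1 sample per array. The authors deposited 1 linear intensity (signal) for each of 45101 probe sets and 72 arrays, made with GCOS per the submitters' processing notes; its version is not given in the sources used here, nor are its settings. The 12 arrays differed in level, with a median deposited intensity of 14.8 to 17.5 in kidney, 7.5 to 12.7 in liver, 10.7 to 12.0 in heart and between 30.1 and 36.1 in brain. The number of arrays limits the precision.

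From these intensities, the 12 arrays of control diet at 6 months were quantile normalised together. The 64 control probe sets were left out, 16 was added before log2, and probe sets whose mean lay above the 40th percentile were tested (27022, from 13384 genes with 1 symbol). A mean per organ was fitted in limma 3.58.1 (R 4.3.3), with moderated tests and an intensity trend, and p-values were adjusted by Benjamini and Hochberg over all probe sets of a comparison. A call needed adjusted p under 0.05 and a log2 difference of at least 1. Symbols came from the platform annotation, where 34958 probe sets had 1 symbol, 932 had several and 9160 were not listed, and 34754 were updated through Entrez numbers.

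Named were up to 20 genes highest and 15 lowest in kidney by the smallest difference, among called probe sets whose arrays did not overlap, 6 genes shared with each other organ, members of 36 gene lists, each by its brightest probe set, and the probe sets at the threshold. The genes described and the lists were chosen with earlier results of these data known. Arrays with the same number deviated together weakly if at all (18 pairs of organs and numbers, r -0.021 to 0.063, none over 0.1). The 36 pairs with different numbers had r -0.059 to 0.068. For kidney with liver, r was 0.030 to 0.063 with the same number and at most -0.003 otherwise. For kidney with brain, it was 0.019 to 0.060 and at most 0.003. Whether such arrays came from the same mice was not tested. They were not paired, and a replicate block gave the same 1033 and 96. The steps were tested on simulated data. Alternatives were other normalisations, offsets, filters, thresholds, a replicate block, the Actb ratio as covariate and each array left out. Those for the repeats in other diets and durations and for kidney across diets and durations were chosen after seeing the data.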

Additional observations from a re-analysis of the deposited data

How the results depend on the processing

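The counts of 1033 probe sets highest and 96 lowest in kidney came to 995 to 1055 and 91 to 102 when 1 array at a time was left out, with 889 and 64 called in all 12 such fits, and to 1033 and 96 with a replicate block. With signals as deposited the median log2 differences of kidney were 0.58 from liver, 0.35 from heart and -0.52 from brain. In the main fit they were 0.03, -0.04 and 0.1. Signals as deposited gave 1393 highest, of which 930 were in the 1033, and 46 lowest, of which 30 were in the 96. The pairwise counts then were 7278 higher and 1083 lower against liver, 5814 and 1600 against heart and 3327 and 9102 against brain, so that 87.0%, 78.4% and 26.8% of calls were higher, against 57.4%, 52.6% and 50.5%.
An offset of 1 gave 280 lowest. An offset of 64 gave 25 lowest, 1607 higher and 1291 lower against liver, 2098 and 1789 against heart and 3101 and 3309 against brain. With the Actb ratio as covariate 667 were highest and 49 lowest, of which 637 were in the 1033 and 39 in the 96, and the difference of Abcc2 from liver was 0.007, against -1.11 without it. A log2 difference of at least 2 gave 481 highest, 10 lowest, 1047 higher and 834 lower against liver, 1402 and 954 against heart and 2061 and 2451 against brain. Adjusted p alone gave 2051 highest, 631 lowest, 6846 higher and 5460 lower against liver, 6794 and 7260 against heart and 9330 and 8154 against brain. Trimmed mean scaling gave 41.7% of calls higher against brain. Over the named genes, 3083 of 3161 values under other settings kept direction and call, 77 lost the call and 1 reversed, and 3486 of 3523 with an array left out kept both.

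In kidney at 14 against 6 months, leaving out 1 array gave 66 to 170 of the 1033, 12 to 33 lower list genes and 5 to 13 lower genes of the 2 proximal lists, and signals as deposited gave 81, 0 and 0. For Q10 against control at 14 months, leaving out 1 array gave 2 to 170, signals as deposited 0 and the Actb covariate 81. For QH2 against control at 6 months that covariate gave 3. The cause of these changes was not tested.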
